A study of Mus musculus with 8 samples.

Results

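Kinesins, myosins and dyneins are the ATP-driven motor proteins that move along microtubules or actin. Their mRNAs were examined here for N6-methyladenosine (m6A), the most common internal methyl mark of mRNA, through the m6A peaks listed for each library. Members were chosen by name: every peak whose assigned gene begins with Kif, Myo or Myl followed by a digit, or with Myh, Dync, Dynl or Dnah. This gave 374 peaks of the 38705 in the 4 lists, in 55 genes of 9779, and overlapping peaks merged into 173 regions of 21168. The rule itself uses names and no measured value. In the gene annotation 120 coding genes carry such a name, and 55 of them (45.8%) held at least 1 peak, beside 41.8% of all 21924 coding genes. One of the 120, Kif1bp, encodes a kinesin-binding protein rather than a motor and held no peak.

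The m6A landscape was measured by MeRIP-seq, in which an m6A antibody pulls marked fragments out of the RNA (the IP library) and the unselected RNA is sequenced as the matching input library. The cells were wild type C57BL/6 mouse embryonic fibroblasts (MEFs), primary cells isolated 13.5 days post-coitum and used at passages 5 to 6. Control MEFs grew in full medium and starved MEFs spent 2 h in medium deprived of nutrients, with no genetic change in either group, to ask how m6A responds to the loss of nutrients. Each group had 2 IP and 2 input libraries, which the study calls biological replicates, and how many embryos stood behind each culture is not given in the sources used here. Of 12 fibroblast markers 10 held a peak, with Col1a1 and Vim without one, and the list totalled 73 peaks over the 4 IP libraries. Lists of 4 to 6 markers of epithelial, immune, endothelial, neuronal and skeletal muscle cells totalled 1 to 11 peaks each. The skeletal muscle list had the most of these, with 11 peaks in Des, Acta1 and Ttn, while the muscle determination genes Myod1 and Myog and the satellite cell gene Pax7 held none.

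Kinesins carry vesicles and organelles, mostly outwards along microtubules, or pull and sort the microtubules of the dividing spindle. Conventional myosins are filaments of heavy and light chains that contract actin, whereas unconventional myosins link actin to membranes and other cargo. Cytoplasmic dynein hauls cargo inwards along microtubules, among it the autophagosomes and lysosomes that starved cells make use of, and axonemal dyneins beat cilia. m6A is written in the sequence DRACH, where D is A, G or T, R is A or G and H is A, C or T, and is best known near stop codons and in long exons.

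The value given for each peak is its fold enrichment, the ratio of the IP signal to the local background of the matching input. It is therefore relative to the RNA in the input and is no measure of how much mRNA a gene makes. Because the lists hold no reads, the sequencing depth behind each value is unknown, and a missing peak does not show that a site was unmethylated. With 2 libraries against 2 there are 3 distinct splits, so that the smallest two-sided exact permutation p is 0.333 and no difference between starved and control libraries could pass 0.05. A difference below is described as free of overlap when both values of one group lay above both of the other, and each such difference has this exact permutation p of 0.333.

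The 55 genes were spread unevenly over the motor classes. Peaks were found in 26 of 39 annotated kinesin genes (Kif1bp included), 9 of 25 unconventional myosins, 3 of 14 myosin heavy chains, 2 of 11 myosin light chains, 13 of 16 cytoplasmic dynein genes and 2 of 15 axonemal dyneins. The 3 heavy chains were the nonmuscle genes Myh9 and Myh10 and the smooth muscle gene Myh11, while the 11 without a peak included the cardiac genes Myh6 and Myh7 and the skeletal genes Myh1, Myh2, Myh4 and Myh8. Among kinesins, neuronal Kif5a and the mitotic genes Kif18a, Kif18b and Kif20a had none. Myo6, the myosin that moves towards the minus end of actin, and Myo1c, a widespread membrane myosin, also had none. The axonemal dyneins gave 1 peak each, in Dnah7b and Dnah17, both from control replicate 2.

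Motor genes held more peaks each and recurred in more libraries than genes in general. The 55 genes averaged 6.8 peaks over the 4 lists, beside 3.96 for all genes, and 25 of them (45.5%) had a peak in all 4 libraries, beside 29.2% of all genes. Myosin heavy chains averaged 22.7 peaks a gene, unconventional myosins 9.22, cytoplasmic dyneins 5.62, kinesins 5.5, light chains 2.5 and axonemal dyneins 1. Dync1h1 had the most peaks of any member with 34, followed by Myh9 with 28, Myh10 with 26, Myo9a with 19, and Kif1b and Myo10 with 17 each. These are long genes with many exons, and the part of length in the number of peaks was not tested.

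The number of motor peaks hardly differed between the libraries. Control replicates 1 and 2 listed 100 and 90 motor peaks, and starved replicates 1 and 2 listed 91 and 93. These were 0.99% and 0.912% of the control lists and 0.933% and 1.04% of the starved lists, and the groups overlapped. By family, kinesins gave 40 and 37 peaks in control against 33 and 33 in starved libraries, myosins 44 and 33 against 40 and 39, and dyneins 16 and 20 against 18 and 21. Kinesins were the family in which both starved counts lay below both control counts. The whole lists had the same order, with 10103 and 9871 peaks in control against 9757 and 8974 in starved libraries. The share of kinesins in each list was not compared.

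Of the 173 motor regions, 30 (17.3%) were called in all 4 libraries and 73 (42.2%) in a single library. Over all regions of the series these shares were 10.7% and 56.2%. The share in all 4 libraries was highest in myosin heavy chains, with 11 of their 23 regions (47.8%), beside 9 of 70 for kinesins (12.9%), 4 of 41 for unconventional myosins (9.76%) and 5 of 35 for cytoplasmic dyneins (14.3%). No region held peaks that the lists assigned to another gene.

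**Figure D1:**
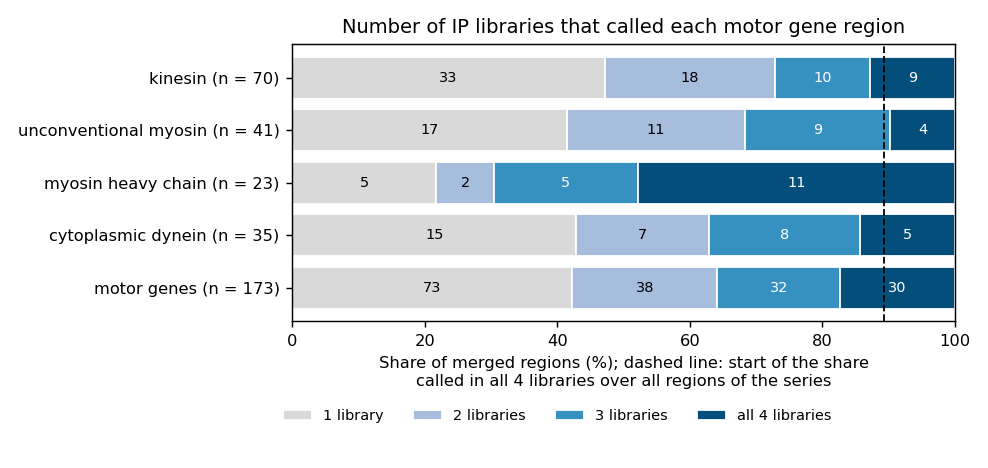
Share of merged regions (%, horizontal axis) called in 1, 2, 3 or all 4 IP libraries, for 4 motor classes and for all motor genes, with the number of regions written in each bar. Light chains and axonemal dyneins (2 regions each) are counted only among the motor genes, and the dark segment of the myosin heavy chains (11 of 23 regions) reaches well past the dashed line, which marks the 10.7% of all regions that were called in all 4 libraries.

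Along the transcript, motor peaks lay mostly in coding sequence. The share of placed peaks with their centre in coding sequence was 62.9% and 58.1% in the control pair and 62.1% and 60.7% in the starved pair, beside 44.7% to 47.2% over all genes. The window of 100 nt on either side of the stop codon held 4.12% and 8.14% of motor peaks in control against 5.75% and 5.62% in starved libraries, beside 12.3% to 13.2% over all genes. Motor genes thus lay above the series in coding share and below it in stop codon share in every library.

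Transcript structure was set beside this position, and its part in it was not tested. The coding sequence of the motor transcripts, each counted as often as it held a peak, had a median of 5562 nt, beside 1899 nt over all peaks. Peaks dropped at random along the same transcripts would put 66.8% of motor peaks and 49.8% of all peaks in coding sequence, and 3.92% and 5.83% within the stop codon window. The observed shares in that window were 4.12% to 8.14% for motor peaks and 12.3% to 13.2% over all genes. Dyneins came closest to the stop codon share of the series, with 12.5% and 22.2% in control against 12.5% and 10% in starved libraries. They had 16 to 21 peaks in each list, so these shares rest on few peaks. Of 33 placed dynein regions 2 were centred in that window, in Dync1h1 and Dynlt1f, and the gene behind the Dynlt1f reads is uncertain. Starved replicate 2 had no kinesin peak and starved replicate 1 no myosin peak in the window. Of all 374 motor peaks 15 had their centre outside the exons of coding transcripts and were not placed.

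**Figure D2:**
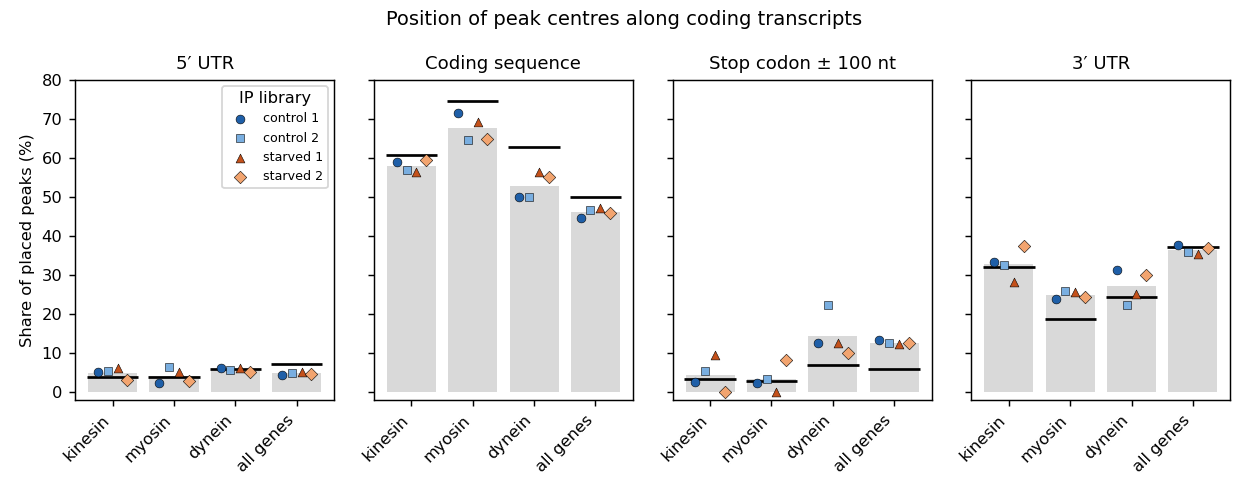
Share of placed peaks (%, vertical axis) by the segment of the transcript that holds their centre (5′ UTR, coding sequence, the stop codon window of 100 nt each way, 3′ UTR), for the 3 motor families and for all genes. Bars give the mean of the 4 IP libraries, points the single libraries and black lines the share under even placement along the same transcripts; myosins stand highest in coding sequence (64.5% to 71.4%) and the stop codon share of all genes (12.3% to 13.2%) lies above its line at 5.83%.

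Coding peaks of motor genes followed the exons. Of 219 motor peaks centred in coding sequence, 117 (53.4%) started and ended exactly at the borders of 1 exon, beside 23.2% of all coding peaks. No listed peak was shorter than 200 bp. Of 203 internal exons of at least 200 nt in motor genes, 79 (38.9%) held the centre of a peak, against 7 of 1172 shorter internal exons (0.597%). Myosins had a peak in 35 of 64 such long exons, kinesins in 27 of 69 and dyneins in 17 of 70. The last exon held a peak in 42 of 54 genes. These shares of exons were not counted over all genes, and the lower limit of 200 bp leaves little room for peaks within shorter exons. Since the peaks end at exon borders and none is shorter than 200 bp, the listed length and the exon length cannot be told apart, and the position of a mark inside an exon is not resolved.

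The core GGAC, the form of DRACH that the m6A writers favour, was counted on the transcript strand in 200 nt of spliced RNA around each peak centre. It stood in 75.3% and 72.1% of control and 69% and 68.5% of starved windows of motor genes. Over all genes the windows at peaks held it in 62% to 64.6%. In windows tiled along the motor transcripts it was found in 59.4%, and in windows tiled along all transcripts in 53.8%. The broader DRACH was found in 97.5% of tiled windows and so separates nothing at this width.

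The nonmuscle and smooth muscle myosin heavy chains form contractile filaments. The coding exons described for them, apart from exon 2 of Myh10 and exon 3 of Myh9, encode the coiled-coil tail that assembles the filaments. Myh9 encodes nonmuscle myosin IIA, the main contractile myosin of fibroblasts. Its exon 26 (chr15:77771824-77772036, minus strand, mm10) had fold enrichments of 295 and 361 in control against 541 and 439 in starved replicates 1 and 2. This was the highest of the 30 motor regions found in all 4 libraries, and both starved values lay above both control values.

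Exon 32 of Myh9 stood at 11.8 and 14.4 in control against 21.9 and 23.6 in starved libraries. Exon 31 had 5.8 and 6.41 against 21.9 and 8.93, and exon 22 had 4.39 and 6.39 against 19.1 and 8.65. In exon 38 the values were 18.7 and 19 against 23.6 and 20.3. All 5 of these exons were free of overlap with the starved libraries higher, an order found in 22.9% of all regions of the series called in all 4 libraries, while the opposite order was found in 18%. The log2 differences, starved minus control, were 0.22 in exon 38, 0.58 in exon 26, 0.80 in exon 32, 1.20 in exon 31 and 1.28 in exon 22. A region at chr15:77807674-77808024, which covers exon 3 and sequence beside it, overlapped between groups with 3.72 and 2.77 against 2.31 and 5.84.

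Myh9 had 8 regions, of which 6 were called in all 4 libraries. Averaged over these 6, its mean log2 fold enrichment was 3.76 and 3.90 in control against 4.67 and 4.42 in starved libraries. The difference was 0.71. These regions belong to the same mRNA and are measured against the same input, so they do not count as 6 observations.

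Myh10 encodes nonmuscle myosin IIB. Its exon 2 (chr11:68699210-68699585, plus strand) had 8.97 and 13.6 in control against 32 and 27.7 in starved libraries, a log2 difference of 1.43. In the opposite direction, its exon 26 had 30.2 and 45.3 in control against 17.9 and 5.25 in starved libraries, a log2 difference of -1.93. Exon 31 had 95.4 and 29.6 against 93.4 and 43.4, and exon 32 had 33 and 5.01 against 61.7 and 3.78, so that in both of these the replicates of a group differed more than the groups. Averaged over the 4 of its 9 regions called in all 4 libraries, the log2 difference of Myh10 was 0.00, against 0.71 for Myh9.

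Myh11 encodes the smooth muscle heavy chain, and its peaks were strong but irregular. Its 14 peaks had a median fold enrichment of 126.9, beside 10.4 for Myh9 and 20.8 for Myh10. The sole Myh11 region in all 4 libraries, in the 3′ UTR (chr16:14194706-14195184, minus strand), had 107.7 and 45.8 in control against 40.3 and 150.2 in starved libraries. Exon 32 had 140.1 and 231.8 in control and 180.8 in starved replicate 2, and exon 34 had 113.7 and 243.6 in control and 222.5 in starved replicate 2. Both exons lacked a peak in starved replicate 1.

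**Figure D3:**
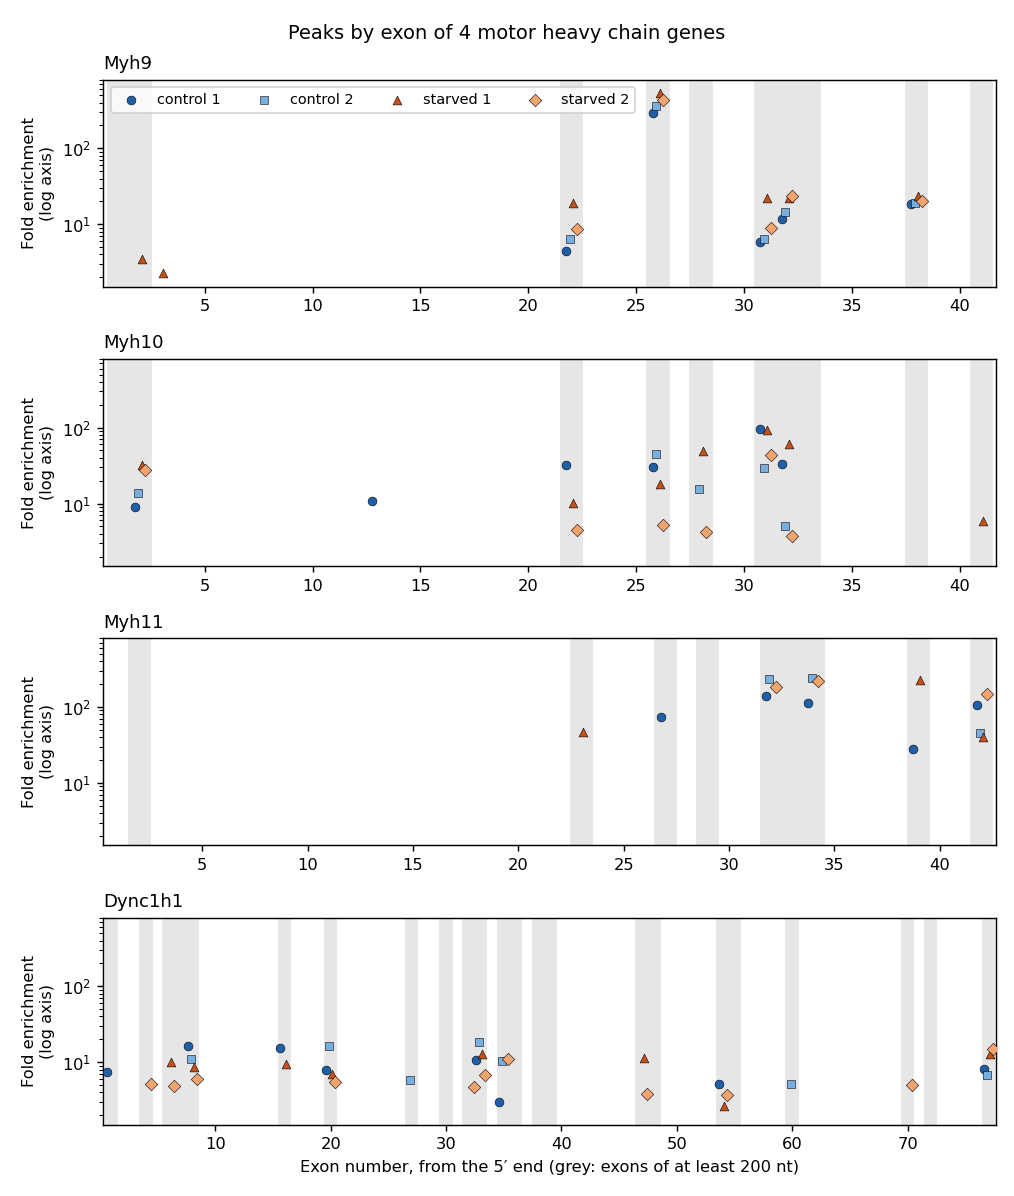
Fold enrichment (log axis) of the peaks centred in each exon of Myh9, Myh10, Myh11 and Dync1h1, with exons numbered from the 5′ end and 1 point for each IP library. Grey bands mark exons of at least 200 nt, which hold nearly all points; Myh9 exon 26 stands alone at 295 to 541.

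The 3 heavy chain genes share their exon structure, so the same exons could be set side by side. Myh9, Myh10 and Myh11 each have 8 internal exons of at least 200 nt, of which 6, 6 and 5 held a peak. Exon 26 of Myh9 is 213 nt long, as are exon 26 of Myh10, with which it shares 71.4% of its bases, and exon 27 of Myh11, with which it shares 77.5%. The enrichment differed widely between these counterparts: 295 to 541 in Myh9, 5.25 to 45.3 in Myh10, and a single peak of 72.8 in control replicate 1 in Myh11. Exon 38 of Myh9 was called in all 4 libraries, its Myh10 counterpart of 76.1% identity in none, and the Myh11 counterpart of 71.8% identity in control replicate 1 at 27.6 and starved replicate 1 at 223.9. Exon 33 went the other way: neither Myh9 nor Myh10 had a peak there, whereas their Myh11 counterpart, exon 34, was the exon of 113.7 to 243.6 above. The Myh9 exon is 86.9% identical to that of Myh10 and 83.6% identical to that of Myh11.

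The sequences below show what these counterparts hold at the DRACH letters (capitals) nearest the centre of the Myh9 exon. The Myh11 windows and the Myh10 window of exon 38 are shown for comparison and were picked after their values were seen. Each is the coding strand, 5′ to 3′, from GENCODE M21 transcripts on mm10:
Myh9 exon 26 (chr15:77771939-77771967, minus strand): tgagctccaggaGGACCtggagtcggagc
Myh10 exon 26 (chr11:68793125-68793153, plus strand): agagctccaggaAGACTttgagtctgaaa
Myh11 exon 27 (chr16:14212633-14212661, minus strand): agacctacaagaGGACCtagactcagagc
Myh9 exon 38 (chr15:77763901-77763929, minus strand): gctggaacgccaGAACAaggagctcaagg
Myh10 exon 38 (chr11:68811868-68811896, plus strand): gctggagcgacaAAACAaggagctgaagg
Myh11 exon 39 (chr16:14202172-14202200, minus strand): gctggagcgccaGAACAaggaactgcgaa

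In the exon 26 set the capitals read GGACC in Myh9 and Myh11 and AGACT in Myh10, and the windows of Myh10 and Myh11 each match Myh9 at 22 of 29 bases. In the exon 38 set all 3 windows keep a DRACH match, with 25 of 29 bases shared between Myh9 and Myh10 and 22 between Myh9 and Myh11. The exon without a peak thus holds such letters as well. Each exon holds further DRACH letters, and which adenosine is methylated cannot be read from peaks that span the exon.

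Light chains, which switch or stabilise the heavy chains, had few peaks. Myl12b, a regulatory light chain, had 1 region in the 3′ UTR (chr17:70973920-70974496, minus strand) with 7.95 and 8.43 in control against 3.34 and 15.8 in starved libraries. The starved replicates lay on either side of the control pair. Myl9, the smooth muscle regulatory light chain, had a peak of 3.56 in starved replicate 2 alone, and the essential light chain Myl6 had none.

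Among unconventional myosins, 4 regions were found in all 4 libraries and each overlapped between the groups. Myo10, which builds filopodia, had 20.9 and 72.8 in control against 9.05 and 109 in starved libraries in exon 27, and 10.4 and 6.52 against 6.79 and 35.8 in its 5′ UTR. Myo18a, a myosin of the Golgi and of actin bundles, had 70.4 and 35.8 against 36.7 and 96.2 in exon 1. Myo9a, a class IX myosin, had 11.1 and 5.43 against 7.05 and 12.1 in exon 2. Replicate spread was wide in all of these, up to a span of 9.05 to 109 within the starved pair.

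Other unconventional myosins came and went between libraries. Myo9a exon 24 reached 241.8 in control replicate 1, 72.1 in starved replicate 1 and 119.1 in starved replicate 2 without a peak in control replicate 2. Myo1d, a class I membrane myosin, had a 3′ UTR region (chr11:80482126-80482553, minus strand) at 11.2 and 9.45 in control and no peak in either starved library. It was the only myosin region of 66 seen in both libraries of one group and in neither of the other. Over the whole series 4.15% of regions were called in both control and neither starved library, and 3.2% in both starved and neither control library. Myo5a, a carrier of vesicles, held 12 peaks, and Myo9b also held 12, with no region of either in all 4 libraries.

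Kinesins were described by their known roles. On a list of 15 that carry cargo 14 had a peak, with 39 regions and 7 of them in all 4 libraries, beside 8 of 11 mitotic kinesins with 18 regions and 2 in all 4, and 4 of 12 others with 13 regions and 0 in all 4. The median fold enrichment of transport kinesins was 12.5 and 15.3 in control against 14.9 and 12.9 in starved libraries, so the groups overlapped.

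Kif13b and Kif13a are close relatives that move endosomes and vesicles. Exon 11 of Kif13b (chr14:64736148-64736360, plus strand) had 39.7 and 70.2 in control against 73.4 and 81.1 in starved libraries, a log2 difference of 0.55. Exon 11 of Kif13a (chr13:46815210-46815422, minus strand) had 89.9 and 45.3 in control and no peak in either starved library. Both exons are 213 nt long and 75.1% identical. The counterparts thus fell on opposite sides: all 4 libraries with higher starved values in Kif13b, control libraries alone in Kif13a. A second region of Kif13a, in the 3′ UTR, was present in all 4 with 6.25 and 23.1 against 19.6 and 4.68.

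Kif3b is a subunit of the kinesin that runs transport inside cilia. Its exon 2 (chr2:153316217-153317684, plus strand) had 5.1 and 14.1 in control against 33.5 and 14.2 in starved libraries, a log2 difference of 1.36 in which the second replicates were nearly level. Kif3c, its relative, had 26.7 and 22 against 18.9 and 24.7 in exon 1, where the groups overlapped. Kif16b, which positions early endosomes, had 33.3 and 39.6 in control against 178.7 and 33.2 in starved libraries in exon 19, a log2 difference of 1.09 although starved replicate 2 lay at the level of the control pair.

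Kif1a, Kif1b and Kif1c carry vesicle precursors. Kif1c exon 21 (chr11:70725890-70726502, plus strand) was called in starved libraries alone, at 13.5 and 3.11, while its 3′ UTR was called in all 4 with 2.71 and 15.3 against 3.45 and 6.78. Kif1b had 12.5 and 15.5 against 27.6 and 4.62 in exon 21. Kif1a had a 3′ UTR region in control libraries alone at 3.6 and 6.48. Of the conventional kinesin heavy chains, Kif5b had 5 peaks between 3.48 and 10.8, Kif5c had 2 with the higher at 346 in starved replicate 2 alone, and Kif5a had none.

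Both mitotic kinesin regions found in all 4 libraries had higher control than starved values. In the series this order was found in 18% of such regions. Kif20b works in cytokinesis, and its 1234 nt exon 19 (chr19:34949741-34950974, plus strand) had 59.9 and 97.3 in control against 12.1 and 16.6 in starved libraries. The log2 difference of -2.43 was the largest in size among the motor regions in all 4 libraries. Kif11, the motor that pushes spindle poles apart, had 22.5 and 15.9 in control against 6.51 and 11.3 in starved libraries in exon 19 (chr19:37413121-37413343, plus strand), a log2 difference of -1.14.

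Kif14, another cytokinesis kinesin, had 82.3 and 36.1 in control and no starved peak in exon 1 (chr1:136468273-136468780, plus strand). Kif22, which moves chromosome arms, had 9.32 and 5.21 in control and no starved peak in exon 12 (chr7:127028070-127028282, minus strand). Other regions of the list went both ways. Kif23 exon 18 had 3.99 in control replicate 1 and 16.6 in starved replicate 1. Another Kif23 region had 90.5 in starved replicate 1 alone, and Kif22 exon 5 had 18.2 in starved replicate 2 alone. Kif2c had 5.6 in control replicate 2 against 5.6 and 12.4 in starved libraries. Kif15 exon 8 had 23.8 and 51.2 in control against 16.6 in starved replicate 1. Kif4 had 9.58 in control replicate 1 against 4.78 and 5.85 in starved libraries. Kif11 exon 18 had 73 and 17.8 in control against 7.14 in starved replicate 2. Kif20b exon 13 had 53.2 in control replicate 1 against 29.9 in starved replicate 1, and Kif14 exon 29 had 35.5 in control replicate 1 against 12.2 in starved replicate 2. Of these other regions with peaks in both groups, only Kif23 exon 18 and Kif2c had the higher mean in starved libraries. As a list, the mitotic kinesins had a median fold enrichment of 23.8 and 15.9 in control against 12.1 and 12.2 in starved libraries, with 11 and 9 peaks against 11 and 7. The enrichment medians of the groups did not overlap while their peak numbers did. Fold enrichment is relative to the input, and the share of dividing cells was not measured. The cause of the difference in medians was not tested.

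The remaining kinesin regions called in control libraries alone lay in Kif26b and Kif2a. Kif26b, an atypical kinesin, had 13.7 and 6.36 in exon 12 (chr1:178915645-178916423, plus strand), and Kif2a, which takes microtubules apart, had 5.99 and 3.58 in its 3′ UTR. Kinesins in all had 6 of 70 regions in both control libraries alone (8.57%) and 1 of 70 in both starved libraries alone (1.43%), beside the 4.15% and 3.2% of the series.

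The windows around the DRACH letters nearest the centre of 4 kinesin regions and 2 dynein regions are shown as examples of each behaviour, in the same form as above:
Kif20b exon 19 (chr19:34950279-34950307, plus strand): gcttccaggtggTGACTtctcaagtacgt
Kif11 exon 19 (chr19:37413212-37413240, plus strand): ttgttgctcagaTGACTtccgatgaagaa
Kif3b exon 2 (chr2:153316967-153316995, plus strand): cctggatggtgaAAACCacatccgggtag
Kif13b exon 11 (chr14:64736206-64736234, plus strand): ataactatgacgAAACCctctcaaccctg
Dync1h1 exon 8 (chr12:110618168-110618196, plus strand): caaaggctgggaGAACCacgtggaagggc
Dync1h1 exon 47 (chr12:110649533-110649561, plus strand): ggggctcatgctGGACTcccacgaggagc

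Kif20b and Kif11, with higher control values, have TGACT at the centre, and Kif3b and Kif13b, with higher starved values, have AAACC. Other regions of the same orders hold other letters nearest their centre. With higher control values, Dync1h1 exon 8 has GAACC, Dync1h1 exon 20 has TAACT and Myh10 exon 26 has GAACA. Myh10 exon 2, with higher starved values, has GGACA. The letters thus do not follow the direction. These are single sites in long exons with other DRACH letters, so the letters are given as a description.

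Cytoplasmic dynein is built on the heavy chain Dync1h1, whose 34 peaks fell into 15 regions. Of its 21 long internal exons 13 held a peak, and 4 regions were called in all 4 libraries. Toward the 5′ end, exon 8 (chr12:110617620-110618696, plus strand) had 16.3 and 11 in control against 8.67 and 6.03 in starved libraries, a log2 difference of -0.89. Exon 20 (chr12:110628908-110629117) had 7.93 and 16.3 against 7.04 and 5.45, a log2 difference of -0.87. Exon 33 had 10.6 and 18.4 against 12.7 and 6.87 and overlapped.

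At the 3′ end of the same mRNA the order was the reverse. The last exon, 77, which holds the stop codon (chr12:110666563-110666945), had 8.12 and 6.86 in control against 12.7 and 15.1 in starved libraries, a log2 difference of 0.89. Exon 6, close to exon 8, and exon 47 had peaks in starved libraries alone, at 10.1 and 4.87 and at 11.5 and 3.86. Averaged over the 4 regions called in all 4 libraries, the log2 difference was -0.36, a mean over exons that lay on both sides.

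Smaller dynein chains had fewer peaks each than Dync1h1, at most 7. Dync1li2, a light intermediate chain that binds cargo adaptors, had a 3′ UTR region in starved libraries alone (chr8:104420220-104420682, minus strand) at 5.86 and 9.13. Dynll2, an LC8 light chain, had a 3′ UTR region in control libraries alone at 2.98 and 15.1. In its relative Dynll1 a 5′ UTR region was called in all 4, with 11.7 and 6.6 against 14.8 and 5.7. Dynlt1f, a Tctex-type light chain, had a stop codon region in control libraries alone at 15.2 and 17.6. The peak regions of Dynlt1a, Dynlt1b, Dynlt1c and Dynlt1f are 99.2% to 99.7% identical where they align, so the gene from which their reads came is uncertain. The intermediate chain Dync1i2 had 2 peaks and the neuronal intermediate chain Dync1i1 none, and Dync2h1, the dynein of cilia, had 1.

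**Figure D4:**
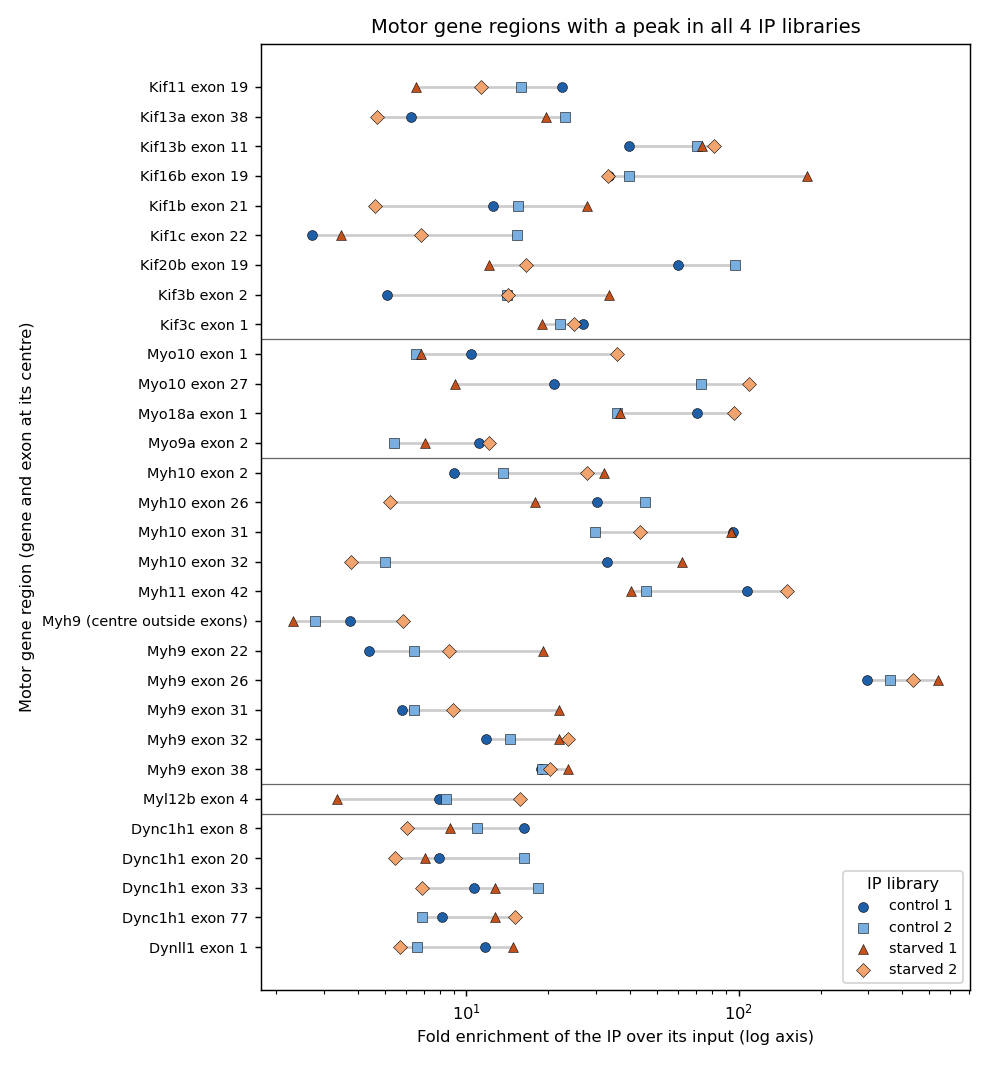
Fold enrichment over input (log axis) of the 30 motor regions called in all 4 IP libraries, 1 line for each region and 1 point for each library, ordered by kinesins, unconventional myosins, heavy chains, light chain and dyneins. Both starved points lie to the right of both control points in 9 regions, 5 of them in Myh9, and to the left in 5 regions, with Kif20b the widest apart.

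No single direction between starved and control libraries ran across the motor genes. Of the 30 regions in all 4 libraries, both starved values lay above both control values in 9 (30%), beside 22.9% of such regions in the series. These were 5 exons of Myh9 and 1 region each of Myh10, Kif13b, Kif3b and Dync1h1. Both control values lay above both starved values in 5 (16.7%), beside 18% in the series, and these were 2 exons of Dync1h1 and 1 each of Kif11, Kif20b and Myh10. Without Myh9 the first count was 4.

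Regions called in both libraries of a single group were few. In both starved and neither control library there were 4 motor regions (2.31%), beside 3.2% in the series, and in both control and neither starved library 9 (5.2%), beside 4.15%. The 4 lay in Dync1h1 (2 exons), Dync1li2 and Kif1c, and 6 of the 9 lay in kinesins. These shares lie near those of the series and are no result about the motor genes.

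Medians over all motor peaks showed the same lack of a common shift. The median fold enrichment was 11.7 and 13.3 in control against 13.8 and 11.9 in starved libraries, whereas over all genes it was 12.2 and 12.3 against 14.6 and 14.7. Kinesins had medians of 15.1 and 14.8 against 16.1 and 12.4, and dyneins 7.68 and 11 against 11.6 and 5.7, both overlapping. Myosins had 12.3 and 11 against 18.5 and 15.4, without overlap, a difference of 0.54 in median log2 fold enrichment where all genes differed by 0.26. Without Myh9 that difference was 0.22, and with 1 value for each gene, its highest peak, it was -0.04.

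In the 30 regions found in all libraries, the mean log2 difference was 0.07, beside 0.09 over all such regions. It was 0.33 for myosins, -0.20 for kinesins and -0.28 for dyneins, and without Myh9 it was -0.09 for all motors. The median size of the log2 difference between the groups was 0.56 in these regions, while the 2 control replicates differed by a median of 0.64 and the 2 starved replicates by 1.12. Over all such regions of the series the sizes were 0.69 between the groups, 0.70 between control and 0.84 between starved replicates. A difference of single libraries varies more than a difference of means over 2 libraries. These sizes therefore cannot be ranked directly.

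Many peaks share the score of exactly 3100 (8003 of 38705), and 296 lie above it, up to 3233. The share of peaks with a score of 3100 or more was higher in the starved libraries as well. For motor genes it was 22% and 17.8% in control against 33% and 23.7% in starved libraries, and for all genes 17% and 13.2% against 28.5% and 27.8%. For myosins it was 27.3% and 30.3% against 45% and 46.2%. Its part in the myosin medians was not tested. Without the peaks that reach 3100 the difference in the myosin median was -0.15 on the log2 scale.

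The partners of the motors were described from a list of 48 genes of adaptors, dynactin subunits, spindle anchors and kinesins without a Kif number, of which 33 had a peak. Of their 92 regions 11 were in all 4 libraries, with 1 of these higher in both starved and 3 higher in both control libraries, beside 22.9% and 18% of such regions in the series. Cenpe, a kinetochore kinesin, had 50.7 and 55.1 in control against 16.8 and 11.3 in starved libraries. Numa1, which anchors dynein at spindle poles, had 48.1 and 50.6 against 22.1 and 15.5. Dctn1, the large dynactin subunit, had 21.8 and 32.1 against 12.8 and 10. In these 3 genes the control values lay above the starved ones.

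Trak2, which ties kinesin to mitochondria, went the other way with 4.52 and 8.44 in control against 29.1 and 16.2 in starved libraries. No partner region was called in starved libraries alone, and 7 of the 92 were called in control libraries alone, beside 3.2% and 4.15% in the series. They were 3 regions of Trak1, the relative of Trak2, and 1 each of the dynein adaptors Bicd1 and Hook3 and of Ndel1 and Pafah1b1, which regulate dynein. Their control values lay between 4.75 and 208.6.

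Among 30 regulators of myosin 24 had a peak, with 77 regions and 16 of them in all 4 libraries. Both control values were higher in 4 of these 16, and both starved values in 1, beside 18% and 22.9% in the series. Rock1, a kinase that activates myosin II, had 426.6 and 473.3 in control against 220.2 and 171 in starved libraries. Rnd3, which restrains Rock1, had 457.3 and 321.4 against 245.5 and 219.6. In both the starved values lay below the control values, the reverse of Myh9 exon 26. Cald1 had 14 and 12.8 against 10.5 and 10.2, and Cdc42bpb 18.4 and 31.2 against 15.4 and 12.9. Actn1, a crosslinker of actin, had 8.36 and 12 against 14.8 and 13.5. In control libraries alone there were 4 regions of 77, in Cdc42bpb, Mprip (2 regions) and Rock2, and in starved libraries alone 1, in Pak2 at 4.46 and 7.19, beside 4.15% and 3.2% in the series.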

How the data were processed

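Lists of m6A peaks from 4 IP libraries (2 control, 2 starved) were used, and the 4 input libraries served as background in peak calling. The submitters' processing notes and the methods of the study state that the authors trimmed paired-end reads, aligned them to mm10 with HISAT2 2.0.4, called peaks for each IP library with MACS2 against its own input, and kept peaks on mRNA exons. The deposited fold enrichment is the ratio of IP signal over the input background nearby, the deposited score is the p-value on a negative log10 scale multiplied by 10, which is exactly 3100 in 8003 peaks and higher in 296, and the authors give a false discovery rate in percent. The column names are those of an earlier MACS, so the caller's version is uncertain. The authors' table of differential sites, with their fold changes and p-values, was not used. The number of unmapped sample columns was 0.

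Members were matched on the gene name of each peak. Starts were raised by 1. Peaks with 1 bp of overlap over the 4 lists were merged, and each region took its highest fold enrichment in each library. Peaks were placed by their centre on GENCODE M21 coding transcripts, since the lists give no summit. Myosin exons were matched by length and ungapped identity. Printed windows were read from GENCODE transcripts and checked against the RefSeq GRCm38.p6 genome. Libraries were compared by two-sided exact permutation. The members, the lists of partners, regulators, kinesin roles and markers, and the rules for named regions were chosen with earlier results of these data known. Regions named in full were those called in both libraries of a single group, those free of overlap, and the 3 highest of each class in all 4 libraries. The calculation was checked on 11 quantities with known answers, and 11 were recovered. Region merging and the region patterns used 4000 simulated regions, while the permutations and transcript positions used small worked examples. Medians, shares of peaks and family values were not simulated. Alternatives were fold enrichment of at least 4, lists cut to 8974 peaks, 50% overlap, peaks with a score under 3100, 1 value per gene, a window of 200 nt at the stop codon, GENCODE genes at peak centres, a replicate block and leaving out each library.

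The deviations of same-numbered replicates had a correlation of -0.02 over all regions in 4 libraries and 0.13 over motor regions. By family it was 0.38 for myosin, 0.20 for dynein and -0.03 for kinesin regions. Replicate numbers were not taken as pairs in the main comparison. Whether same-numbered libraries were processed together is not given in the sources used here. Python 3.11.15, numpy 2.4.6, pandas 2.3.3 and matplotlib 3.10.9 were used.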

Additional observations from a re-analysis of the deposited data

How the results depend on the processing

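Depth is unknown, so weak and strong peaks could not be weighed by their reads, and absence from a list is not absence of m6A. With 2 libraries a group no difference could pass 0.05 in any setting. Among the 11 results and 106 alternatives, 70 kept the direction or stayed within 1.5 times the count. These include the replicate block, whose differences equal the main ones by construction. Counts with a library left out rest on a looser rule and so tend to rise. The tally is therefore partly fixed by the settings. The cause of the changes in the other alternatives was not tested, except that leaving out genes or libraries changes what is counted.

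Differences are starved minus control. With peaks of at least 4-fold enrichment, the share of motor peaks differed by -0.0103 percentage points in place of 0.0337. With lists cut to equal numbers of peaks, the motor median differed by -0.047 on the log2 scale in place of 0.03, and 7 regions in place of 4 were called in both starved libraries only. Among peaks with a score under 3100 the motor median differed by -0.11 and the myosin median by -0.15, and with 1 value per gene by -0.21 and -0.041. With a window of 200 nt the stop codon share differed by 2.68 percentage points in place of -0.449. Assigning peaks to the GENCODE gene at their centre gave 363 motor peaks and no change of direction.

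Settings added after the data were seen left out single genes. Without Myh9 the motor median differed by -0.0203, the mean over regions in all 4 libraries by -0.0864, and 4 regions in place of 9 were higher in both starved libraries. Without Dync1h1 the dynein median differed by 0.12 in place of -0.18. Without the Dynlt1 copies 8 regions in place of 9 were called in both control libraries only.

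Leaving out each library in turn gave differences from -0.0181 to 0.0855 percentage points in the motor share, -0.0749 to 0.14 in the motor median, 0.01 to 0.14 in the mean over shared regions, -2.46 to 1.56 percentage points in the stop codon share, -0.26 to 0.11 in the kinesin median, 0.40 to 0.67 in the myosin median and -0.69 to 0.33 in the dynein median. Counts of regions then rest on 3 libraries and were 10 to 24 for starved only, 17 to 28 for control only, 14 to 21 for higher starved values and 9 to 12 for higher control values.

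The replicate block averages the differences within replicate numbers, which equals the difference of group means, so no direction could change. Its smallest exact permutation p was 0.5, and the myosin median difference of 0.54 had a p of 0.5 in place of 0.333. The position of a peak's summit could not be used, since the lists give none.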
